A study of Mus musculus with 6 samples.

Results

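The 4 mouse TRIM-NHL genes Trim71, Trim2, Trim3 and Trim32 were followed through a knockdown of Trim71 in embryonic stem cells. They were found by symbol. Each had 1 probe set whose annotation gave that symbol alone, so the set comprised 4 of 34760 probe sets on the array and 4 of 19937 genes tested. No other probe set carried a member's symbol among several. RNA of mouse embryonic stem (mES) cells was hybridised to 6 single-colour Affymetrix arrays, 3 of Trim71 KD cells and 3 of control cells. Trim71 KD means transfection with 3 siRNAs against Trim71, mixed and delivered with Dharmafect1, and harvest after 72 h. The growth protocol pairs this with a non-targeting siRNA, whereas the genotype field of the control arrays reads wild-type and the series title calls those cells parental. The labels therefore do not settle whether the control cells were transfected. The labels name no mES line. The labels do not say whether the 3 arrays of a group were separate cultures, so the p-values rest on spread between arrays that may be technical. In limma, variance moderation also draws each gene's variance towards that of all genes.

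TRIM-NHL proteins join a RING domain, B-boxes and a coiled coil to a C-terminal NHL domain, a propeller of repeats named after NCL-1, HT2A and LIN-41. The RING domain can act as a ubiquitin ligase, while the NHL domain binds RNA in some members and protein partners in others. Trim71, also called Lin41, is the mouse counterpart of the worm heterochronic gene lin-41. It is abundant in early embryos and embryonic stem cells, represses a set of mRNAs, and is itself repressed by the let-7 microRNAs as cells differentiate. Trim2 and Trim3 are best known from neurons, and Trim32 from neural progenitors and skeletal muscle, where mutations of the human gene cause a limb-girdle muscular dystrophy.

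The let-7 family is the known repressor of Trim71 mRNA, so its mature sequences are given here as context for the let-7 genes measured below. Of 10 let-7 family genes with a probe set of their own, 9 matched a mature 5p sequence in RefSeq (GRCm38.p6), and the 8 distinct names all share the seed GAGGUAG. Capitals mark the seed, bases 2 to 8.
let-7a-5p: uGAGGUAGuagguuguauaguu
let-7c-5p: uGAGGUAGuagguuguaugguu
let-7d-5p: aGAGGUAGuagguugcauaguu
let-7e-5p: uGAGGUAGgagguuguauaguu
let-7f-5p: uGAGGUAGuagauuguauaguu
let-7g-5p: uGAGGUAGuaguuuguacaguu
let-7i-5p: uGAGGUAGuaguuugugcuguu
miR-98-5p: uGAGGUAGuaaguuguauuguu

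Values are RMA log2 expression, the scale on which the table was deposited. Array signals are not compared between genes, apart from placing genes against the median signal of all probe sets. Array medians were 6.27 to 6.31 for Trim71 KD and 6.26 for each control array, and no 2 arrays were identical. Trim71 KD array 3 stood apart, with an upper quartile of 8.42 against 8.32 to 8.35 on the other 5 arrays, and it received the lowest array weight (0.301, against 0.796 to 2.01). All 12 embryonic stem cell markers lay at or above the median signal of all probe sets. Of these markers Klf4 (log2 fold change 0.36) and Zfp42 (0.25) rose, Lin28a (-0.26) fell and 9 did not pass. That is 25% called, against 5.53% of all genes. The groups did not overlap for 8 of the 12, against 25.5% of all genes. Both shares of all genes cover genes of any signal. A fit of only the 11098 genes at or above that median called 1080 higher and 737 lower. Of 15 fibroblast (feeder cell) markers 14 were measured, 7 of them at or above the median signal of all probe sets. Of these 14 markers 3 fell, the cytoskeletal genes Acta2 (-0.70), Tagln (-0.34) and Vim (-0.24), which is 21.4% called, against 5.53% of all genes. The mean level of the fibroblast list was 6.40 to 6.51 in Trim71 KD arrays and 6.50 to 6.62 in control arrays, and its part in the results below was not tested. The other 11 measured fibroblast markers did not pass, with log2 fold changes from -0.17 (Pdgfra) to 0.13 (S100a4). Without single arrays Acta2 remained called in all 6 fits. Klf4 and Tagln lost the call without any one of control arrays 1, 2 and 3 or Trim71 KD array 2, with an adjusted p in limma of up to 0.0680 for Klf4 and 0.0880 for Tagln. Zfp42 and Vim lost it without any one array but Trim71 KD array 3, with an adjusted p in limma of up to 0.105 for Zfp42 and 0.120 for Vim.

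Trim71 fell, Trim32 rose, and Trim2 and Trim3 did not pass the test. A change was called at an adjusted p under 0.05 in limma, with Benjamini-Hochberg adjustment over all 19937 genes. The SEs and confidence intervals of single genes use the moderated variance of limma unless stated otherwise. Of the 4 TRIM-NHL genes 2 were called, against 5.53% of all genes in either direction, with 3.39% higher and 2.15% lower. One of these 2, Trim71, was the gene the siRNAs were made against. The split of all calls depended on scaling, with 675 higher and 428 lower as deposited, 779 and 763 after a repeated quantile normalization, and 527 and 616 with each array centred on its median. Without Trim71 KD array 3, the array that stood apart, it turned to 603 higher and 699 lower. Leaving out another array lowered the calls, to 148 higher and 101 lower without control array 1, 179 and 102 without control array 2, and 228 and 137 without control array 3. The counts were 449 and 205 without Trim71 KD array 1, and 227 and 117 without Trim71 KD array 2. The values of the 3 Trim71 KD and 3 control arrays did not overlap for 3 of the 4 TRIM-NHL genes, against 25.5% of all genes.

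**Figure D1:**
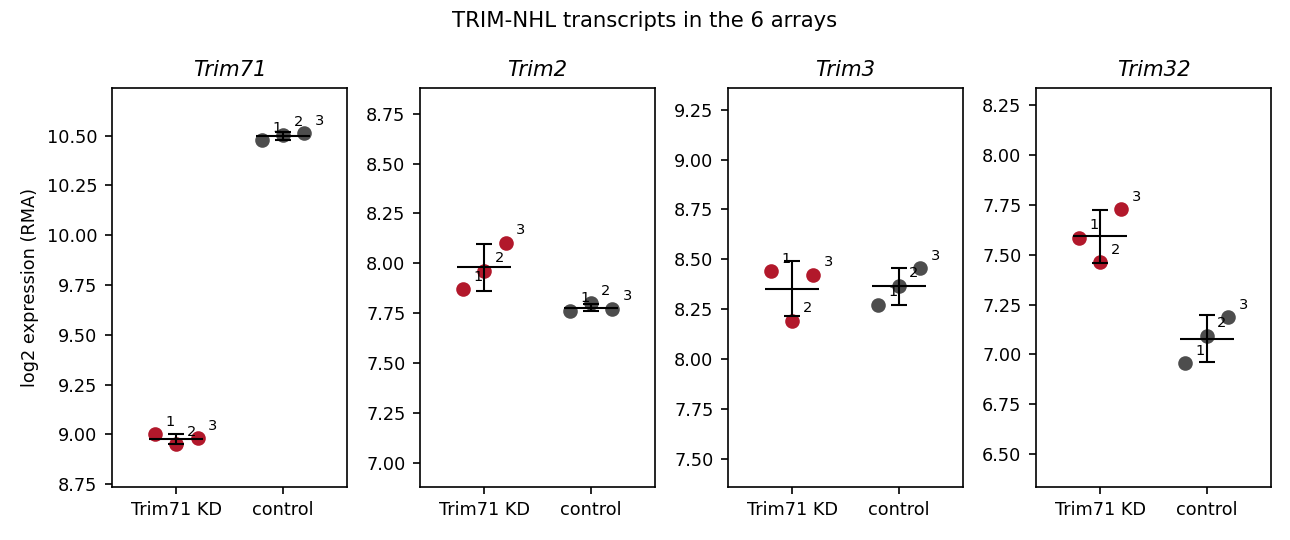
Log2 expression (RMA) of each TRIM-NHL gene in Trim71 KD arrays (red, left) and control arrays (grey, right). Points are arrays with their replicate numbers, bars are the mean and SD of 3 arrays, and each panel spans 2 log2 units around its own centre. Trim71 KD arrays lie below the control arrays for Trim71, above them for Trim32 and Trim2, and overlap them for Trim3.

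Trim71, the RNA-binding ligase that the siRNAs target, read 9.00, 8.95 and 8.98 in Trim71 KD arrays 1 to 3, against 10.48, 10.50 and 10.51 in control arrays 1 to 3. All 3 Trim71 KD arrays were low, by nearly the same amount, and the groups lay 1.48 log2 units apart at their closest. Relative to the mean of the control arrays, the Trim71 KD arrays retained 35.4%, 34.3% and 34.9% of the signal. The group means were 8.98 ± 0.025 in Trim71 KD cells and 10.50 ± 0.018 in control cells (SD, n = 3 each). The log2 fold change of Trim71 was -1.52 ± 0.045 (SE), with an adjusted p of 2.80e-05 in limma. Its 95% confidence interval ran from -1.62 to -1.42, a fold of 0.349 (0.324 to 0.375). This was the lowest log2 fold change of all 19937 genes and the largest in size in either direction. Trim71 was also among the least noisy genes, since its pooled SD of 0.022 exceeded that of only 2.55% of genes. Without variance moderation its SE was 0.018, with an adjusted p of 0.00215 in limma. RMA compresses differences at the dim end, and an array of bulk RNA cannot tell fewer cells with the transcript from less transcript in each cell.

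Trim32, a ligase that in mouse neural progenitors degrades c-Myc and binds Argonaute 1, read 7.59, 7.46 and 7.73 in Trim71 KD arrays, against 6.95, 7.09 and 7.19 in control arrays. The 3 Trim71 KD arrays were all higher, and the lowest of them exceeded the highest control array by 0.27. Relative to the control mean these were 142.1%, 130.4% and 156.9% of the signal. The group means were 7.59 ± 0.13 in Trim71 KD cells and 7.08 ± 0.12 in control cells (SD, n = 3 each). Trim32 rose 1.43-fold (95% confidence interval 1.24 to 1.64), a log2 fold change of 0.51 ± 0.086 (SE) with an adjusted p of 0.0178 in limma. Among all genes 108 had a higher log2 fold change, and 99.1% had a smaller one in size. The highest Trim32 value was that of Trim71 KD array 3, the array that stood apart. Without it the log2 fold change was 0.45 with an adjusted p of 0.0279 in limma. The call was lost without control array 1 (0.45, adjusted p = 0.0771 in limma) and without control array 2 (0.52, adjusted p = 0.0729 in limma). It held narrowly without control array 3 (adjusted p = 0.0438 in limma) or Trim71 KD array 1 (0.04998). Whether the losses come from these particular arrays or from the smaller number of arrays was not tested. The call was also lost without variance moderation (adjusted p = 0.112 in limma) and with all probe sets tested (adjusted p = 0.0690 in limma).

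Trim2, a neuronal ligase that binds the neurofilament light chain, read 7.87, 7.96 and 8.10 in Trim71 KD arrays, against 7.76, 7.80 and 7.77 in control arrays. The Trim71 KD arrays were the higher ones without overlap, but they were also more spread, with an SD of 0.12 against 0.019 in the control arrays (n = 3 each), and the closest values lay 0.072 apart. The log2 fold change was 0.20 ± 0.066 (SE), 1.15-fold, with an unadjusted p of 0.0164 (adjusted p = 0.143 in limma). Trim2 thus did not pass, and the interval of 0.05 to 0.35 holds changes of up to 1.28-fold. Its highest value was again that of Trim71 KD array 3, without which the log2 fold change was 0.14.

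Trim3, a neuronal ligase that associates with class V myosins, read 8.44, 8.19 and 8.42 in Trim71 KD arrays, against 8.27, 8.37 and 8.46 in control arrays. The groups overlapped, with the lowest value on Trim71 KD array 2 and the highest on control array 3. The means were 8.35 ± 0.14 in Trim71 KD cells and 8.36 ± 0.092 in control cells (SD, n = 3 each). The log2 fold change was -0.01 ± 0.082 (SE) with an adjusted p of 0.958 in limma, and its interval of -0.20 to 0.18 leaves room for folds of 0.868 to 1.13.

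**Figure D2:**
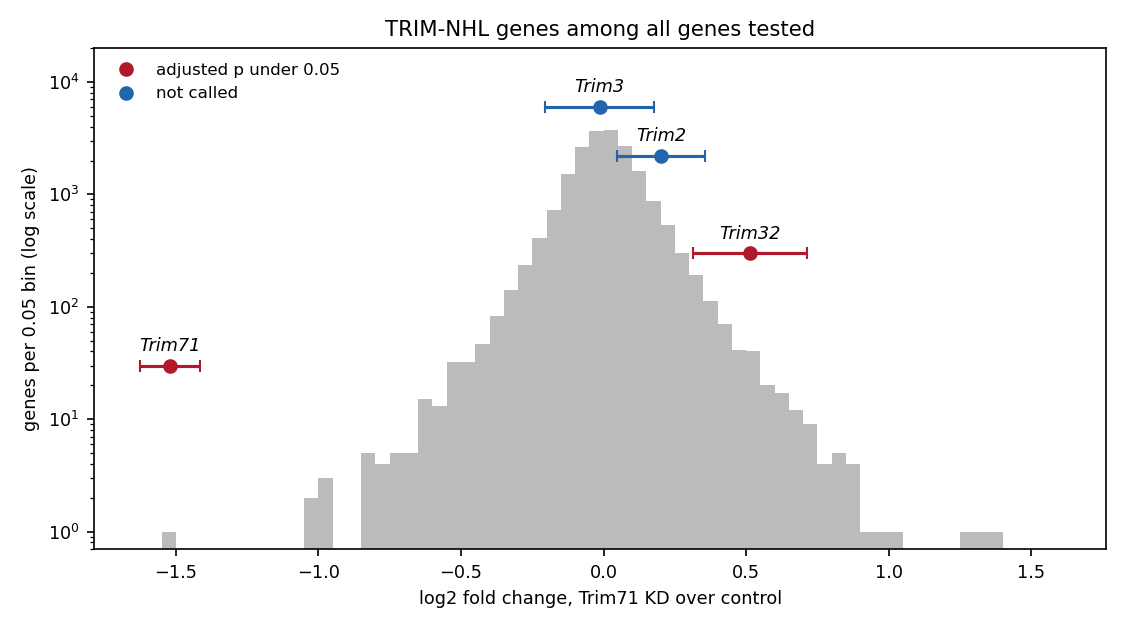
Histogram of log2 fold changes, Trim71 KD over control, of all 19937 genes (bins of 0.05, counts on a log scale), with the 4 TRIM-NHL genes and their 95% confidence intervals above it at arbitrary heights. Red points were called and blue points were not. Trim71 at -1.52 has no neighbour, Trim32 at 0.51 lies in the right tail, Trim2 at 0.20 is smaller than Trim32 but exceeds 88.2% of genes in size, and Trim3 lies near 0.

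The amounts by which the 4 genes moved were compared by the per-array difference between their log2 values, over 6 pairs of genes. The SE of each such difference comes from its own arrays, without moderation. The Trim71 KD minus control value of this difference was -2.03 ± 0.091 (SE) for Trim71 minus Trim32, -1.72 ± 0.074 for Trim71 minus Trim2 and -1.51 ± 0.080 for Trim71 minus Trim3. It was 0.53 ± 0.051 for Trim32 minus Trim3 and 0.31 ± 0.090 for Trim32 minus Trim2. In these 5 pairs the arrays of the groups did not overlap, and the exact two-sided permutation p was 0.1 in each (adjusted over the 6 pairs, 0.12), the minimum for this design, so no pair could pass. The pairs with Trim71 hold the siRNA target, whose groups alone lay at least 1.48 log2 units apart. No share of such pairs over all genes was computed. For Trim3 minus Trim2 the difference was -0.21 ± 0.11 (SE), the groups overlapped, and the exact permutation p was 0.3. Trim32 and Trim3 shared part of their spread between arrays, since the pooled SD of their difference was 0.062, against 0.13 for Trim32 and 0.12 for Trim3 alone.

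The pathway genes around Trim71 were read from lists of partners, substrates and targets chosen with earlier results of these data known, so their counts are descriptions. In the 8 lists together 62 of 68 genes were measured, of which 7 rose, 7 fell and 48 did not pass. That is 22.6% called, against 5.53% of all genes. Their median log2 fold change was 0.03, against 0.00 over all genes. Of the 62 genes, 56 lay at or above the median signal of all probe sets. Genes at that level were called more often than 5.53%, with 1080 higher and 737 lower of 11098 in a fit of those alone. The share of 5.53% here and below covers genes of any signal. Direct partners and substrates of Trim71 were measured for 11 of 13. Of these 0 rose and 2 fell (18.2% called, against 5.53% of all genes), and the median was 0.00. Lin28a, which blocks let-7 maturation, read 9.29, 9.30 and 9.31 in Trim71 KD arrays against 9.57, 9.54 and 9.58 in control arrays. Its paralog Lin28b, a reported ubiquitination substrate of Trim71, read 7.56, 7.54 and 7.64 against 7.84, 7.83 and 7.78. Both sets of values were lower without overlap, with log2 fold changes of -0.26 ± 0.044 (SE, adjusted p = 0.0178 in limma) for Lin28a and -0.24 ± 0.050 (SE, adjusted p = 0.0383 in limma) for Lin28b. Both calls were lost without any one of control arrays 1, 2 and 3 or Trim71 KD arrays 1 and 2, and the adjusted p in limma reached 0.0944 for Lin28a and 0.162 for Lin28b, each without control array 1. The Argonaute genes did not pass, with 0.05 for Ago1, -0.08 for Ago2, 0.14 for Ago3 and -0.22 for Ago4. Nor did Upf1, the helicase of nonsense-mediated decay, at 0.15, Tut4, which uridylates let-7 precursors, at 0.15, Dicer1 at -0.09, Shcbp1 at 0.01 and Smg1 at 0.00.

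The reported mRNA targets of Trim71 were measured for 11 of 12, all but Cdkn1a. They were the list with the most calls, 5 higher and 2 lower, and had a median of 0.26. This is 63.6% called, against 5.53% of all genes (3.39% higher, 2.15% lower). If the study chose any of them from these same arrays, which is not known here, their direction cannot serve as independent evidence. Plxnb2, a semaphorin receptor, read 10.13, 10.16 and 10.28 in Trim71 KD arrays against 9.43, 9.45 and 9.44 in control arrays, so it was 1.68-fold higher. Mbnl1, a splicing regulator, read 8.82, 8.90 and 8.90 against 8.13, 8.21 and 8.26. Inhbb, an activin subunit, read 8.68, 8.80 and 8.87 against 8.09, 8.18 and 8.02. In these 3 genes every Trim71 KD array was higher than every control array by at least 0.51. Rbl1, a retinoblastoma relative, rose by 0.40 and the cell cycle repressor E2f7 by 0.27. The immediate early gene Egr1 fell by 0.48 and its corepressor Nab1 by 0.24. The other 4 measured targets did not pass. They were Rbl2 at 0.26 (adjusted p = 0.126 in limma), Hoxa5 at 0.04, Ago2 at -0.08 and Nab2 at -0.03. Rbl1 lost the call without control array 1 (adjusted p = 0.0680 in limma) or 3 (0.0536). E2f7 lost it without any one array but Trim71 KD array 3, with an adjusted p in limma of up to 0.131 (without control array 1). Nab1 lost it without any one of the 6 arrays, with an adjusted p in limma of up to 0.183 (without control array 2), while Plxnb2, Mbnl1, Inhbb and Egr1 remained called in all 6 such fits.

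In the worm, lin-41 represses lin-29, mab-10, mab-3 and dmd-3. Of 6 mouse relatives of these genes 1 rose and 1 fell (33.3% called, against 5.53% of all genes), with a median of 0.00. Dmrt1, a DM-domain transcription factor of the testis related to mab-3 and dmd-3, read 8.54, 8.64 and 8.68 in Trim71 KD arrays against 8.29, 8.28 and 8.39 in control arrays. It rose by 0.30 ± 0.058 (SE, adjusted p = 0.0287 in limma), and it lost the call without any one of control arrays 1, 2 and 3 or Trim71 KD array 2, with an adjusted p in limma of up to 0.130 (without control array 1). The lower gene was Nab1, a relative of mab-10. Nab2 was at -0.03, Dmrt3 at 0.03, and the lin-29 relatives Zfp362 and Zfp384 at -0.23 (adjusted p = 0.0825) and 0.07, and these 4 did not pass.

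In the fly, the TRIM-NHL protein Brat represses mRNAs together with Pumilio, Nanos and a cap-binding protein. Of 7 mouse relatives 6 were measured, 1 rose and 1 fell (33.3% called, against 5.53% of all genes), with a median of -0.05. Nanos3, an RNA-binding protein that maintains primordial germ cells, read 8.43, 8.33 and 8.35 in Trim71 KD arrays against 7.79, 7.85 and 7.83 in control arrays. All 3 Trim71 KD arrays lay well above the control arrays. Its log2 fold change was 0.55 ± 0.050 (SE, 1.47-fold, adjusted p = 0.00216 in limma), and it was called in all 16 alternative settings. Its relative Nanos1 read 6.75, 6.97 and 7.03 in Trim71 KD arrays against 7.38, 7.24 and 7.29 in control arrays. Nanos1 fell by 0.39 ± 0.080 (SE, adjusted p = 0.0369 in limma), and it lost the call without any one array but Trim71 KD array 3, with an adjusted p in limma of up to 0.148 (without control array 1). Eif4e2, the cap-binding partner, was at 0.19 (adjusted p = 0.0569), Nanos2 at -0.19, Pum2 at -0.08 and Cnot1, the scaffold of the deadenylase complex, at -0.01.

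**Figure D3:**
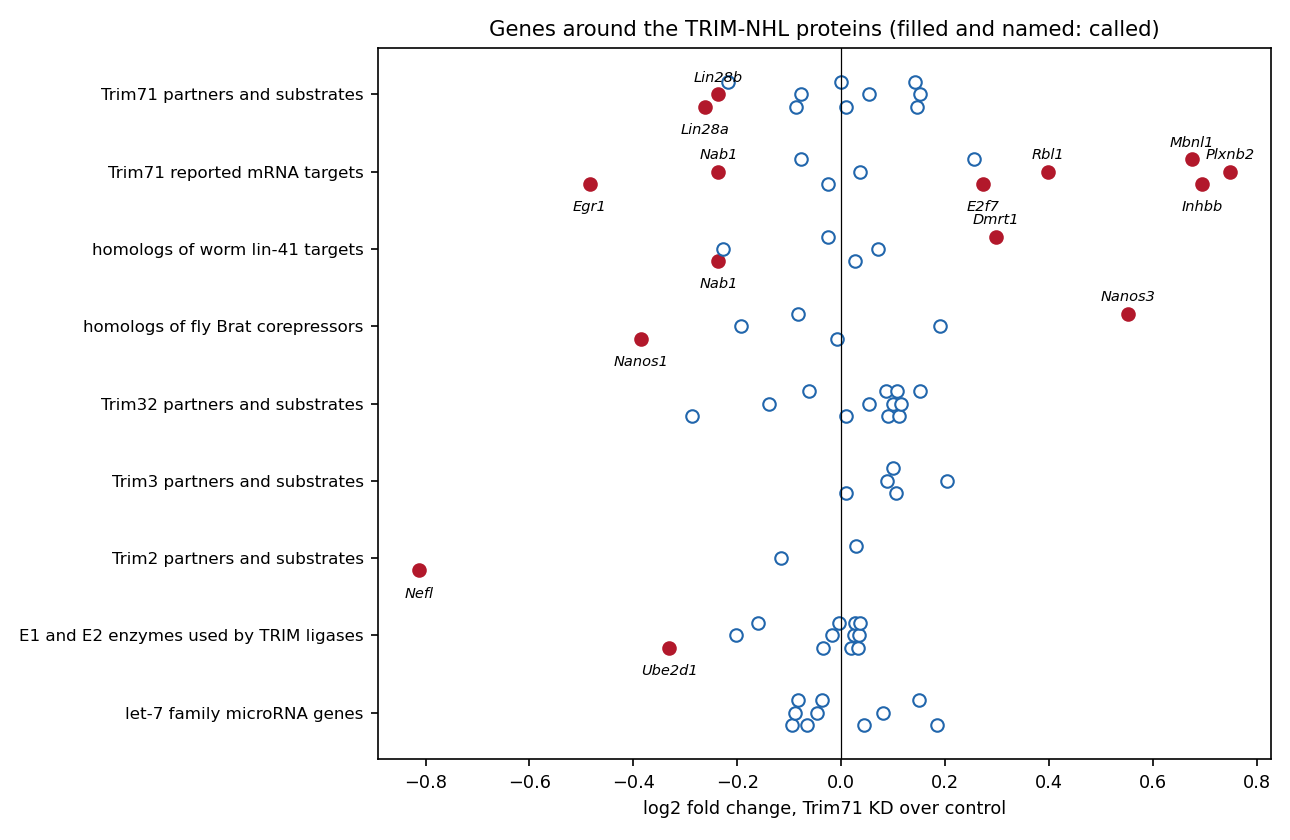
Log2 fold changes, Trim71 KD over control, of the measured genes in 8 lists around the TRIM-NHL proteins and of the let-7 genes. Each point is a gene, and filled, named points were called. The reported Trim71 targets hold 7 called genes among 11, while the Trim32, Trim3 and let-7 lists hold 0.

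Partners and substrates of the other TRIM-NHL proteins were read in the same way, against the same 5.53% of all genes called. An unadjusted p under 0.05 in limma was reached by 3794 of all 19937 genes. For Trim32, limma called 0 of 12 measured genes, and 4 had an unadjusted p under 0.05. Myc, whose protein Trim32 degrades, read 9.61, 9.37 and 9.50 in Trim71 KD arrays against 9.84, 9.86 and 9.65 in control arrays. These values did not overlap, but the log2 fold change of -0.29 ± 0.082 (SE) did not pass (adjusted p = 0.0987 in limma). Jup, the junction protein plakoglobin, was at 0.15 (adjusted p = 0.136), and the list median was 0.09. For Trim3, limma called 0 of 5 measured genes, and 2 had an unadjusted p under 0.05. Hgs, an endosomal sorting protein, was at 0.20 with an adjusted p of 0.0527, and the motor gene Myo5b at 0.11.

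Of the 3 Trim2 partners, Nefl was called (33.3%, against 5.53% of all genes). It encodes the neurofilament light chain that Trim2 ubiquitinates, and read 8.88, 8.57 and 8.58 in Trim71 KD arrays against 9.42, 9.49 and 9.55 in control arrays. Each Trim71 KD array was lower than every control array. Nefl fell by 0.81 ± 0.089 on the log2 scale (SE, adjusted p = 0.00468 in limma). Bcl2l11, the cell death regulator Bim, was at -0.12 (adjusted p = 0.250) and the motor gene Myo5a at 0.03.

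A RING ligase takes ubiquitin from an E2 enzyme, which an E1 enzyme charges. Of 13 such genes 12 were measured, 1 fell and 0 rose (8.33% called, against 5.53% of all genes), and the median was 0.01. Ube2d1 read 9.36, 9.31 and 9.31 in Trim71 KD arrays against 9.63, 9.72 and 9.62 in control arrays. It was lower without overlap, by 0.33 ± 0.050 (SE, adjusted p = 0.0123 in limma), and it lost the call without control array 1 (adjusted p = 0.0644 in limma), control array 2 (0.0676) or Trim71 KD array 2 (0.0582). Ube2e3 was at -0.20 (adjusted p = 0.0597). The other E2 genes of the Ube2d family were at -0.04 for Ube2d2a, 0.02 for Ube2d2b and 0.03 for Ube2d3, and their closely similar sequences may not be separated by the probes.

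The let-7 genes were added to the lists after the files had been seen. In limma 0 of 10 let-7 genes were called (5.53% of all genes were called). An unadjusted p under 0.05 was reached by 0 of them, against 3794 of all 19937 genes. Their log2 fold changes ran from -0.09 (Mirlet7a-1) to 0.18 (Mirlet7e), with a median of -0.04. Only 3 of the 10 reached the median signal of all probe sets. Mirlet7e read 6.85, 7.06 and 6.98 in Trim71 KD arrays against 6.92, 6.69 and 6.73 in control arrays, so its groups overlapped. These probe sets cover precursor transcripts, and the mature RNAs shown above were not measured.

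The genes that followed Trim71 and Trim32 most closely were sought by Pearson's r over the 6 arrays, among 1239 other genes whose values spanned at least 0.5. The arrays are shared and the groups carry most of the variation, so a high r says mainly that a gene moved between the groups. For Trim71, 149 genes had an r above 0.9, and for Trim32 220. The 5 nearest to Trim71 were Zp3 (an egg coat glycoprotein, r = 0.999), Tmem64 (0.997), Cdca7 (a chromatin protein of dividing cells, 0.996), Rasgef1a (0.994) and Robo4 (0.994). All 5 fell, with log2 fold changes from -1.03 for Zp3 to -0.52 for Cdca7, and were called in each of the 16 alternatives. The choice by r with Trim71 over these same arrays largely fixes this direction and the small spread within groups. Their calls are therefore no separate evidence.

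The 5 nearest to Trim32 were Ranbp10 (r = 0.999), the antiproliferative gene Btg2 (0.998), the matrix protein gene Efemp1 (0.996), the nucleoside diphosphate kinase gene Nme4 (0.994) and Hsf5 (0.992). They rose by 0.36 (Nme4) to 0.62 (Efemp1). Each of the 5 was highest on Trim71 KD array 3 and lowest on control array 1, which the choice by r with Trim32 over these same arrays largely fixes. All 5 lost the call in at least 5 of the 16 alternatives (of 15 for Hsf5, which the level filter removed), as Trim32 did in 5. Without control array 1 the adjusted p in limma was 0.111 for Ranbp10, 0.0987 for Btg2, 0.0712 for Efemp1, 0.0989 for Nme4 and 0.0680 for Hsf5.

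**Figure D4:**
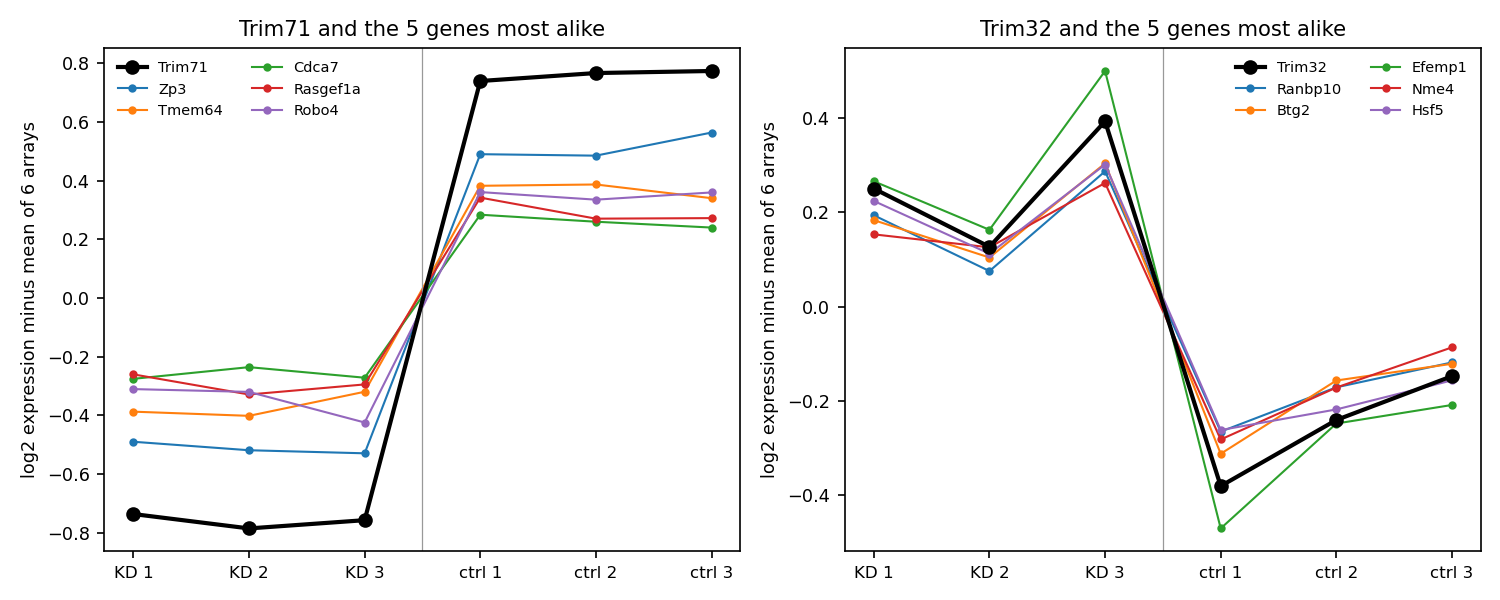
Log2 expression minus the mean of the 6 arrays for Trim71 (left panel, black) and Trim32 (right panel, black) with the 5 genes most alike to each. Lines join the arrays of 1 gene and carry no order. Both sets of genes were chosen for their r over these arrays, which largely fixes their shape. The Trim71 genes are flat within each group, while the Trim32 genes share a high Trim71 KD array 3 and a low control array 1.

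The promoters of Trim71 and Trim32 are given because these are the members that passed the test. They are the 250 bases before the RefSeq gene start (GRCm38.p6, minus strand for Trim71 at chr9:114564370-114564619, plus strand for Trim32 at chr4:65604736-65604985). Capitals mark a GC box (GGGCGG) or a CCAAT box (CCAAT) on either strand, and no base here belongs to both.
Trim71: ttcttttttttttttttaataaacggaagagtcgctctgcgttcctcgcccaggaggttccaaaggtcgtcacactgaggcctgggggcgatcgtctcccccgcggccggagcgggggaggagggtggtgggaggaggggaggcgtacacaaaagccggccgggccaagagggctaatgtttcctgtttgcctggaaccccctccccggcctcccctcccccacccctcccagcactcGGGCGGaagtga
Trim32: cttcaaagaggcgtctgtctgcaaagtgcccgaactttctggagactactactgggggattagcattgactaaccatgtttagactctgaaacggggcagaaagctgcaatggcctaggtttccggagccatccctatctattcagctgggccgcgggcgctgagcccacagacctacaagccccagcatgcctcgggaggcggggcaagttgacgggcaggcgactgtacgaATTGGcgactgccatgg
The Trim71 window held 1 GC box, a motif found in 32.7% of 32851 promoter windows, and no CCAAT box. The Trim32 window held 1 CCAAT box on the reverse strand, a motif found in 33.9% of windows, and no GC box. TATAAA (in 12.4% of windows) and CACGTG (in 6.02%) were in neither. CpG occurred 17 times in the Trim71 window and 13 times in the Trim32 window, against a median of 6 over all windows, of which 76.5% held fewer than the Trim71 window and 68.5% fewer than the Trim32 window. These matches are descriptions of sequence.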

How the data were processed

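The deposited table gives a log2 expression value for every probe set on each of the 6 arrays. The authors made these values with RMA and affy, per the submitters' processing notes, which name no versions. RMA subtracts background, quantile normalizes arrays and summarizes probes, which hides any shift common to most genes, and no detection calls are given. The number of arrays limits the precision.

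Of 34760 probe sets, 21640 had 1 symbol in GEO's platform annotation, 1321 several and 11799 none. 21553 of the first matched a RefSeq gene by Entrez identifier. The probe set with the highest mean stood for a gene, which left 19937. Trim71 KD was set against control in limma 3.58.1 (R 4.3.3, lmFit and eBayes, group only, no intensity filter), with exact permutation tests for member pairs. The fit was tested on simulated data. Python 3.11.15 drew the plots. Alternatives were a replicate block, single arrays left out, a level filter, a trended robust prior, array weights, probe set means, other scalings, no moderation, all probe sets and an adjusted p under 0.01.

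Members and lists were chosen with earlier results of these data known. Named genes are the members, every called list gene, the 2 with the largest statistic per list and the 5 most alike genes. Other named genes were chosen after their values were seen.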

Additional observations from a re-analysis of the deposited data

How the results depend on the processing

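In limma, Trim71 (log2 fold change -1.55 to -1.51) was called in all 16 alternative settings, and Trim2 (0.14 to 0.26, adjusted p = 0.0593 to 0.349) in none. Trim32 stayed between 0.45 and 0.58. With single arrays left out it ranged over 0.45 to 0.58, with adjusted p-values of 0.0279 to 0.0771 in limma. It lost the call at an unchanged 0.51 without variance moderation (adjusted p = 0.112), with all probe sets tested (0.0690) and at an adjusted p under 0.01, so 0 members were then called higher. Members called higher were 0 to 1 with single arrays left out. Trim3 changed sign without control array 3 (0.03) and without Trim71 KD array 2 (0.066), and ranged from -0.060 to 0.066 over such fits, without a call.

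The 6 pair differences kept their sign and moved by less than 1 SD when single arrays were left out and after quantile normalization was repeated. Of the 62 pathway genes, 7 rose and 7 fell as reported, against 675 and 428 of all 19937 genes. With single arrays left out 4 to 7 rose and 2 to 6 fell, while over all 19937 genes 148 to 603 rose and 101 to 699 fell. Here 4 rose without control array 1 or 3. Further, 2 fell without control array 1, control array 2 or Trim71 KD array 2, and 3 fell without control array 3 or Trim71 KD array 1. At an adjusted p under 0.01, 4 rose and 2 fell, against 152 and 94 of all 19937 genes. Among probe sets at or above the median signal 12 of 56 pathway genes rose, against 1080 of all 11098 genes. With a trended prior 13 rose, against 1213 of all 19937 genes. With array weights 12 fell (1058 of all 19937 genes), and without moderation 4 fell (142 of all genes). With all probe sets tested 3 fell (134 of all 34760 probe sets). The number of calls over all genes thus changed with the setting as well. Some of these settings also bring fewer arrays or a larger number of tests, and the cause of the changed counts was not tested.

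Same-numbered Trim71 KD and control arrays did not deviate together, with correlations of -0.02, -0.15 and -0.24 over genes. Differently numbered Trim71 KD and control arrays had correlations from -0.23 to 0.28. The numbers were therefore not taken as pairs. With the replicate number as a block, Trim71 (adjusted p = 0.00632) and Trim32 (0.0435) stayed called in limma. In that fit 4 pathway genes rose and 2 fell, against 171 and 108 of all 19937 genes.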
